A study of Mus musculus with 12 samples.

Results

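Whether PgLPS and CS-PA/CNP acted independently on messenger levels was examined in bone marrow-derived macrophages, primary cells grown from mouse marrow. All 12 libraries of the series entered, as a 2 by 2 design with 3 libraries in each of 4 groups. One group was left as control, one received CS-PA/CNP alone, one PgLPS alone and one the pair. All cells were wild type per the labels, which give no dose, time, order of addition, animal age or expansion of either abbreviation. Replicates are labelled biological, without a statement that animals or cultures were separate, so p-values reflect only how far these samples varied, and that variation may be technical. The quantity tested was the interaction: how much larger or smaller the log2 CS-PA/CNP effect was under PgLPS than in its absence. It equals the log2 effect of PgLPS with CS-PA/CNP minus its effect without, and it is 0 where the 2 fold changes multiply. A gene was called higher or lower than additive where its interaction passed an edgeR quasi-likelihood test at a Benjamini-Hochberg (BH) adjusted p under 0.05 over all 11656 genes tested, of 21899 in the table. Levels are CPM, reads per 1000000 of the TMM-scaled library. Errors of log2 values are standard errors implied by that test, with 3 libraries per group. Each is the absolute log2 value divided by the square root of its F statistic, and intervals of the interaction were built from it.

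Lipopolysaccharides, the bacterial surface glycolipids that LPS abbreviates, are sensed by Toll-like receptors with help from CD14 and MD-2. Signalling through the adapters MyD88 and TRIF activates NF-kB, AP-1 and interferon regulatory factors, which raise cytokine, chemokine and interferon-stimulated genes and, as feedback, their own inhibitors. The transcription factor NRF2 runs a separate programme of glutathione, thioredoxin and quinone detoxification that responds to electrophiles and oxidants. Activated macrophages also lower proliferation and many genes of the resting state.

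The libraries held 14992707 to 20082900 reads each, and 13169 to 13511 genes had reads in a library. All 10 macrophage markers, among them Csf1r, Adgre1 and Lyz2, were read in every library, with summed levels of 20631 to 22073 CPM in control and 30334 to 32807 CPM with PgLPS. Summed markers of dendritic, B, T and NK, and mast cells stayed at or below 5.98 CPM in every library, with Cd3d, Cd8a and Tpsb2 at 0 reads throughout. Erythroid and megakaryocyte markers summed to 153 to 198 CPM in control, 178 to 219.5 CPM with CS-PA/CNP, 343 to 490 CPM with PgLPS and 534 to 614 CPM with both, nearly all of it Pf4, while Alas2 and the globins had at most 8 reads. Neutrophil markers summed to 151 to 183 CPM in control, 115 to 167 CPM with CS-PA/CNP, 225 to 251 CPM with PgLPS and 179.6 to 207 CPM with both. Stromal markers summed to 0.472 to 2.72 CPM in control, 0.552 to 2.10 CPM with CS-PA/CNP, 5.88 to 53.6 CPM with PgLPS and 2.18 to 4.49 CPM with both, and the highest value was PgLPS library 1. PgLPS alone raised all 4 tested stromal markers, CS-PA/CNP under PgLPS lowered 3 of them (Col1a1, Col1a2 and Pdgfrb), and their median interaction was −2.15. In the interaction edgeR called 2 macrophage markers, both lower than additive, and no marker of another cell type. Of the tested markers of other cells, 1 of 6 neutrophil and 2 of 4 stromal markers had an unadjusted p under 0.05, DESeq2 and limma-voom called 0, and limma on log2(CPM + 1) called 1 stromal marker. Without PgLPS library 1 there were 1840 interaction calls, of which 1651 were among the main ones. The part of other cells in the results was not tested.

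The joint effect departed from additivity for 1841 of 11656 tested genes (15.8%), of which 869 (7.46%) were higher and 972 (8.34%) lower than additive. With library totals in place of TMM, 63.7% of calls were higher instead of 47.2%, and the median interaction of all genes moved by 0.09. Of the calls, 245 higher and 278 lower genes departed at least 2-fold. The median interaction over all tested genes was −0.01, and for 6097 genes (52.3%) the 95% interval lay within 1.5-fold of additive in both directions. Called genes were more highly read than tested genes in all: the median level in the highest group was 132 CPM for genes lower than additive, 59.2 CPM for genes higher than additive and 32.8 CPM for all tested genes.

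Departures mostly ran against the PgLPS response. PgLPS alone raised 3750 of all tested genes (32.2%) and lowered 3683 (31.6%), 63.8% together, and with CS-PA/CNP present it raised 26.6% and lowered 25.4%, 51.9% together. Among the 972 genes lower than additive, PgLPS alone raised 936 and lowered 7. Among the 869 genes higher than additive, PgLPS alone lowered 795 and raised 38. For 1369 of the 1841 genes (74.4%) PgLPS moved the gene in one direction with and without CS-PA/CNP, and the change was smaller with it. For another 317 the PgLPS effect was called only without CS-PA/CNP, 61 had it called only with, 45 had a larger change with, 45 changed in opposite directions and 4 were called in neither. The interaction and these effects share libraries, so the shares describe the called genes and are not a further test. In bulk RNA, fewer responding cells and less message per cell cannot be told apart.

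**Figure D1:**
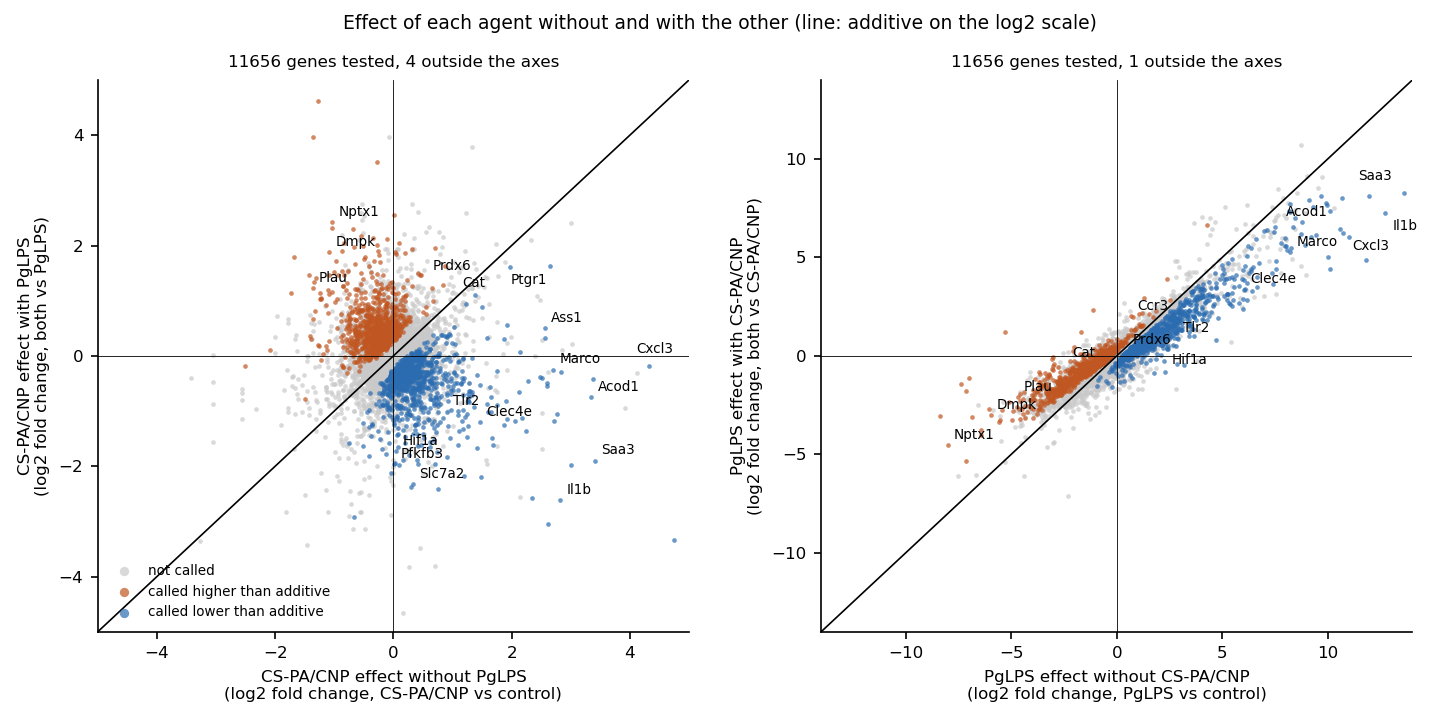
Each point is 1 of 11656 tested genes. Left, the CS-PA/CNP effect without PgLPS (horizontal) against that with PgLPS (vertical); right, the PgLPS effect without CS-PA/CNP against that with it, all as log2 fold changes. The diagonal is additivity. The 972 blue genes, called lower than additive, lie below it and the 869 orange genes above it. Il1b and Plau lie in opposite quadrants on the left, where the CS-PA/CNP effect changed sign, while Prdx6 and Cat lie near the line.

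CS-PA/CNP alone raised 777 genes (6.67%) and lowered 654 (5.61%), 12.3% together, and with PgLPS it raised 1098 (9.42%) and lowered 1170 (10%), 19.5% together. Those effects have no library in common. Called in both were 669 genes, 46.8% of the first list and 29.5% of the second. Of these, 406 (60.7%) moved in opposite directions, and the interaction was called for all 406. The interaction is the difference of these effects, so opposite signs fix its direction. Its call is therefore not a further test of these 406 genes. Within them, 227 were raised by CS-PA/CNP alone and lowered by it when PgLPS was present, with median log2 effects of 0.51 and −0.50, and 179 were lowered alone and raised with PgLPS, with medians of −0.43 and 0.52. PgLPS alone raised 225 of the 227 and lowered 173 of the 179. In the remaining calls the CS-PA/CNP effect was called only with PgLPS for 814 genes, only without for 384, in the same direction but larger with PgLPS for 34, in the same direction but larger without for 27, and in neither setting for 176.

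**Figure D2:**
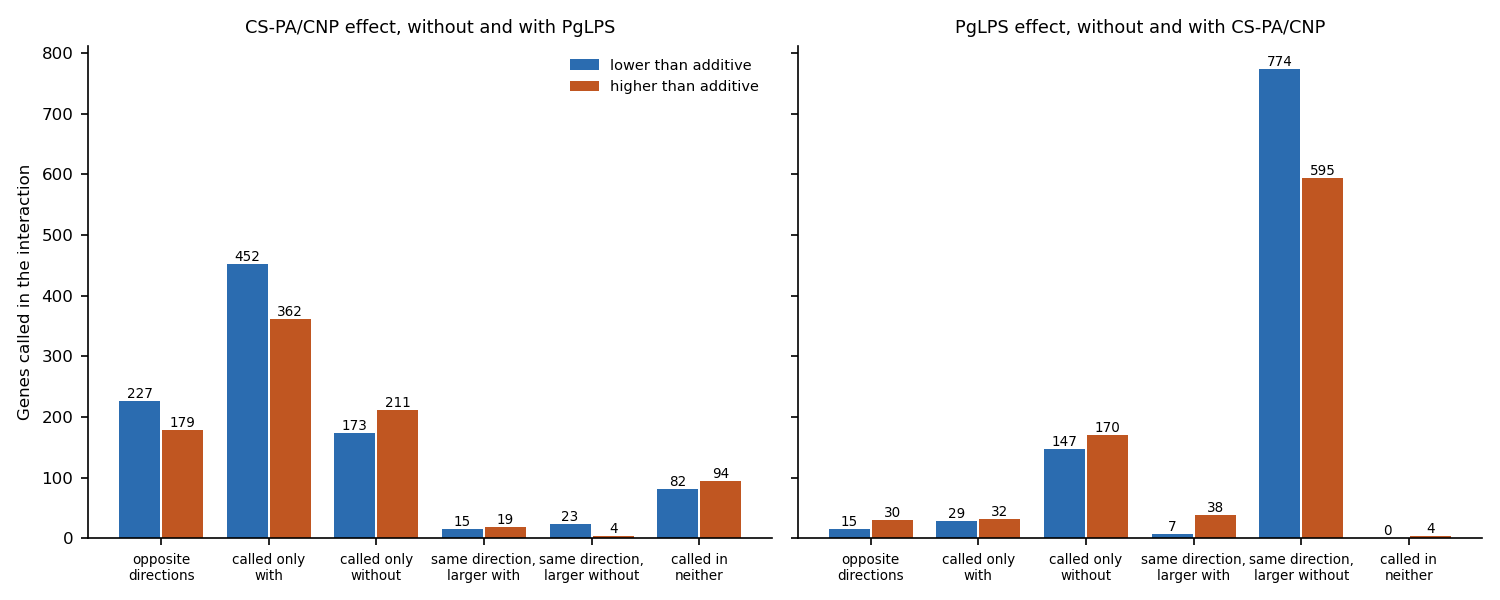
Number of genes called in the interaction, by how the effect of CS-PA/CNP (left) or of PgLPS (right) compared without and with the other agent; blue bars are lower and orange bars higher than additive. Opposite directions hold 227 and 179 genes on the left, and a smaller PgLPS change with CS-PA/CNP holds 774 and 595 genes on the right.

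Il1b (ENSMUSG00000027398, chromosome 2), the gene of interleukin-1 beta, had the largest departure among genes with at least 10 reads in each group. Its levels were 0.105, 0.754 and 0.504 CPM in control, 2.21, 2.37 and 4.96 with CS-PA/CNP, 2948, 3151 and 3092 with PgLPS and 494, 474 and 528 with both. No group overlapped another, and CS-PA/CNP stood above control but both agents stood below PgLPS. CS-PA/CNP changed Il1b by 2.82 ± 0.38 without PgLPS and by −2.62 ± 0.12 with it, an interaction of −5.44 ± 0.38 (edgeR BH-adjusted p = 6.2e-09). Had the fold changes multiplied, the level with both agents would have been 21457 CPM, a figure that rests on the low control levels. The interaction of Il1b ran from −6.03 to −4.11 over 20 alternative fits and was called in all 20. Saa3, an acute-phase protein gene, followed at −5.3 ± 0.55 (edgeR BH-adjusted p = 1.1e-06), with group means of 1.06 ± 0.48, 10.9 ± 8.5, 13137 ± 2341 and 3517 ± 360.2 CPM (SD, n = 3) in control, CS-PA/CNP, PgLPS and both.

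Acod1 (ENSMUSG00000022126, chromosome 14) encodes the enzyme that makes itaconate, a metabolite of activated macrophages. It stood at 1.15, 2.51 and 2.74 CPM in control, 22.1, 19.9 and 23.3 with CS-PA/CNP, 3278, 3223 and 3136 with PgLPS and 2000.3, 1756 and 2002 with both. The 4 groups were separate, in the order control, CS-PA/CNP, both, PgLPS, and the interaction was −4.09 ± 0.18 (edgeR BH-adjusted p = 1.7e-11). That order of all libraries held for 367 of the 972 genes lower than additive and for 378 of all 11656 tested. The reverse order, from PgLPS up to control, held for 265 of the 869 higher genes and for 289 of all tested. Either order fixes the direction of the departure, so these counts describe the called genes and are not a further test. Other genes with the largest negative departures were the neutrophil chemokines Cxcl3 (−4.5 ± 0.61) and Cxcl1 (−3.12 ± 0.43), the chemokine Ccl5 (−3.84 ± 0.37), the oxidised lipoprotein receptor Olr1 (−3.61 ± 0.46), the cytokine signalling inhibitor Socs3 (−3.31 ± 0.19), the cytokine Il1a (−3.16 ± 0.33), the myeloid receptor Tarm1 (−3.14 ± 0.21), the prostaglandin E synthase Ptges (−3.12 ± 0.16) and the scavenger receptor Marco (−2.95 ± 0.13). Cxcl3 rested on 13 control reads and stood at −2.40 with limma on log2(CPM + 1), where Olr1 stood at −2.27. CS-PA/CNP alone raised Cxcl3 by 4.32 ± 0.58 and Cxcl1, with 39 control reads, by 2.83 ± 0.39. Under PgLPS its effects on them, −0.18 ± 0.17 and −0.29 ± 0.18, were not called. On the CPM scale their departures were −51.2 ± 61.7 and −14.9 ± 10.6 (SE).

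**Figure D3:**
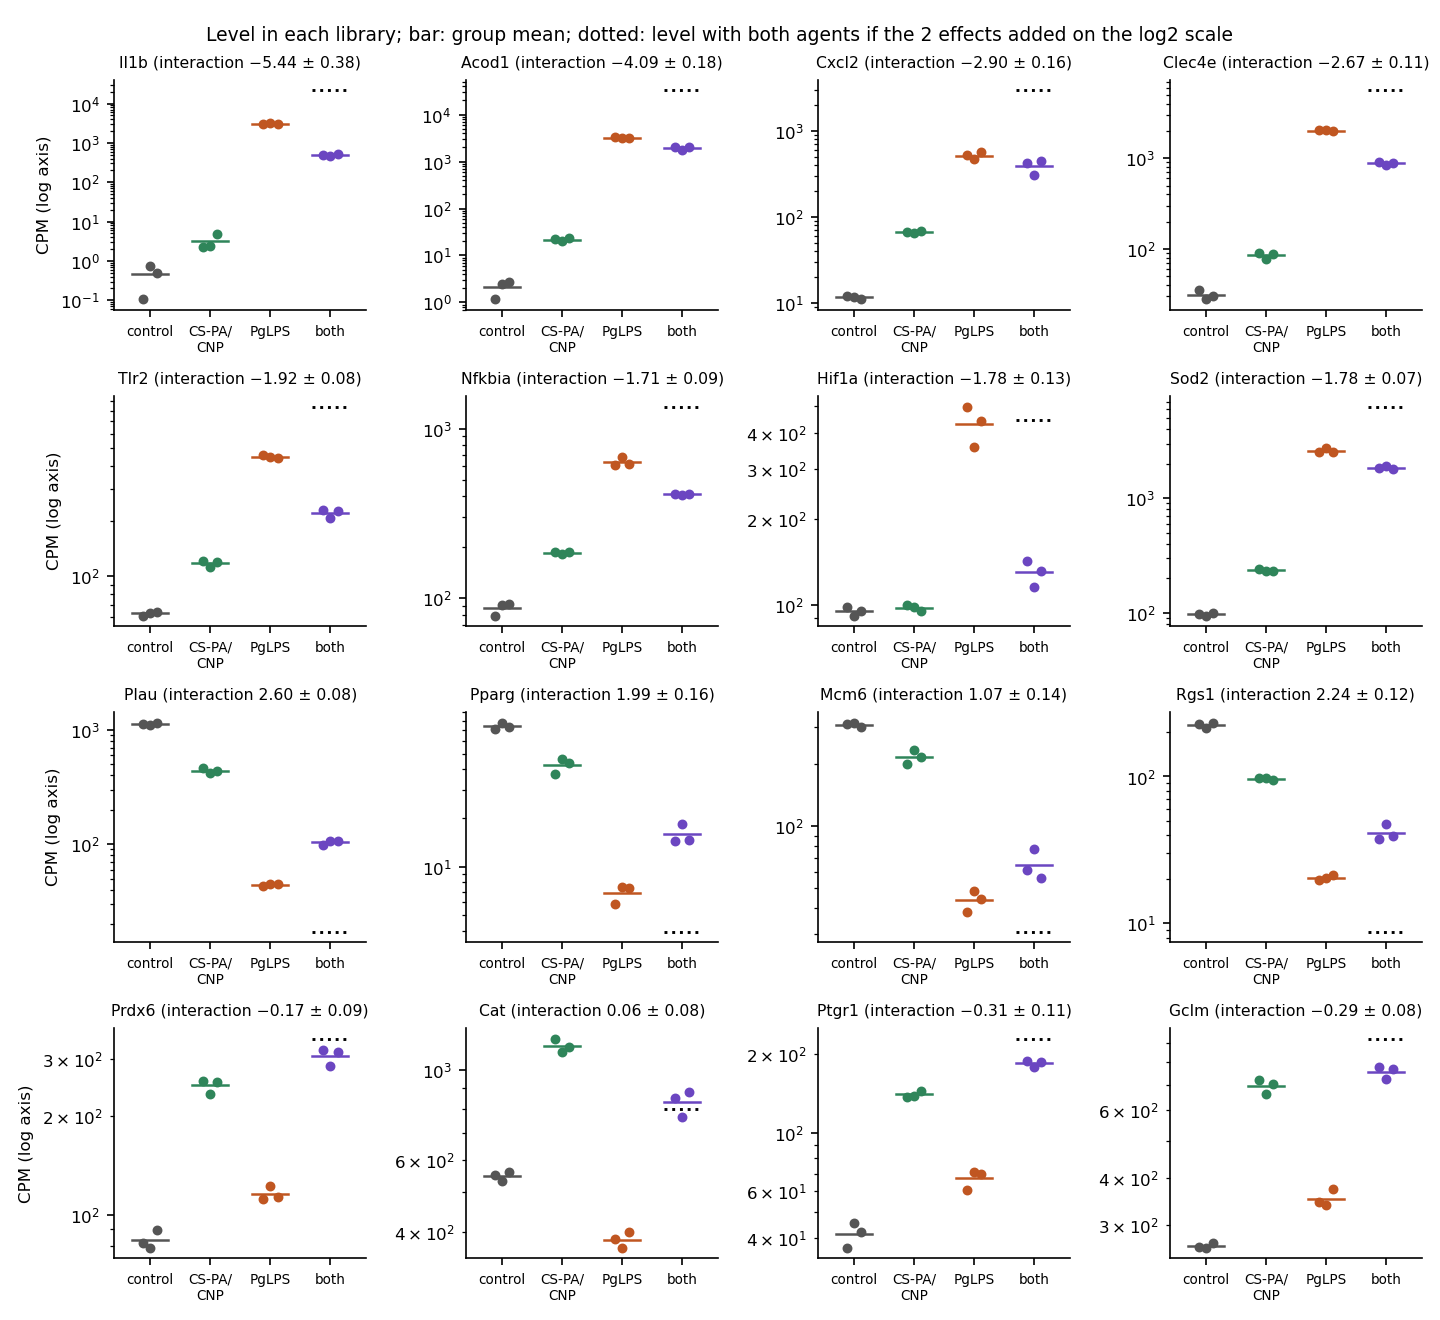
CPM on a log axis in each of the 3 libraries per group (points) with the group mean (bar) for 16 genes; the dotted line in the last column is the level expected with both agents if the log2 effects added. For Il1b, Acod1, Cxcl2, Clec4e, Tlr2, Nfkbia, Hif1a and Sod2 all libraries with both agents lie below the dotted line, for Plau, Pparg, Mcm6 and Rgs1 above it, and for Cat on either side of it. For Prdx6, Ptgr1 and Gclm they lie just under it.

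Sensing of LPS was examined first. Of 22 tested Toll-like receptors, co-receptors and adapters, 6 were lower and 2 higher than additive, with a median of −0.14 against −0.01 for all tested genes. For this and all later lists, the shares over all tested genes were 8.34% lower and 7.46% higher. Those shares depend on the PgLPS response. Of the 3750 genes PgLPS alone raised, 936 were lower than additive, and of the 3683 it lowered, 795 were higher. Whether a list departed more than other genes with the same PgLPS response was not tested. Tlr2, the receptor for bacterial lipoproteins, had 61.1, 63.1 and 64.1 CPM in control, 121, 112 and 119.8 with CS-PA/CNP, 459, 444 and 442 with PgLPS and 231, 208 and 228 with both. CS-PA/CNP raised it alone (0.91 ± 0.06) and lowered it under PgLPS (−1.01 ± 0.06), with no overlap of groups and an interaction of −1.92 ± 0.08 (edgeR BH-adjusted p = 1.7e-11). The LPS co-receptor Cd14 departed by −0.94 ± 0.10 and the inhibitory kinase Irak3 by −0.93 ± 0.10. The CS-PA/CNP effect on Cd14 was −0.17 ± 0.07 and not called without PgLPS, and −1.12 ± 0.07 with it. On Irak3 it was 0.33 ± 0.07 without and −0.61 ± 0.06 with PgLPS, both called.

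NF-kB subunits and feedback inhibitors were among the lists with most calls. Of 21 tested, 17 were lower than additive and 4 were not called, with a median of −1.12, and 12 of the 17 had CS-PA/CNP effects of opposite sign. Nfkbia (ENSMUSG00000021025, chromosome 12) encodes the inhibitor that holds NF-kB in the cytoplasm. Its levels were 79, 91.4 and 92.6 CPM in control, 187, 183 and 189 with CS-PA/CNP, 609.8, 682 and 617 with PgLPS and 414, 409 and 413 with both. All groups were separate. It rose with CS-PA/CNP alone (1.09 ± 0.07) and fell with it under PgLPS (−0.63 ± 0.06), and the interaction was −1.71 ± 0.09 (edgeR BH-adjusted p = 2.3e-10). Tnip1, a partner of the A20 ubiquitin regulator, departed by −1.54 ± 0.08, from 70.3 CPM in control to 120.5 with CS-PA/CNP and from 487 with PgLPS to 286 with both.

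The stretch of promoter just before the start of 4 genes is shown as examples of 2 motifs, and these 4 were picked because they hold a match. Cxcl2, Tnip1 and Sod2 departed from additivity with opposite CS-PA/CNP effects, and Gclm, described further on, stayed within 1.5-fold of additive. The promoters of Il1b, Clec4e and Acod1, which departed in the same way, and of Ptgr1, which was not called, held no match to any of the 4 motifs searched. Tlr2, which also had opposite effects, held a kappaB match, and Nfkbia, likewise, held both a kappaB and an antioxidant match. Each is 250 bases from RefSeq on GRCm38.p6, 5′ to 3′ toward the gene. Capitals mark matches on either strand to the kappaB consensus, bound by NF-kB, in the first 3 and to the antioxidant response element core TGACNNNGC, bound by NRF2, in Gclm.
Cxcl2 (chr5:90903649-90903898, plus strand): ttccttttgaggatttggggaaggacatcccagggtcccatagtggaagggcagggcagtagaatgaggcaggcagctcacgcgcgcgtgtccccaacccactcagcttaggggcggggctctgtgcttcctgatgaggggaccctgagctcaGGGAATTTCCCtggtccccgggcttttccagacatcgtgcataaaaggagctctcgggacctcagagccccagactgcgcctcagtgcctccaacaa
Tnip1 (chr11:54962941-54963190, minus strand): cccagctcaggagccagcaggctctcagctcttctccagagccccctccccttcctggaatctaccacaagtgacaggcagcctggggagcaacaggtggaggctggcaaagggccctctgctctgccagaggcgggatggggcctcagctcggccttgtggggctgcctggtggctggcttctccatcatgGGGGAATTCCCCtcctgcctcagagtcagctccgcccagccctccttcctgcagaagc
Sod2 (chr17:13007589-13007838, plus strand): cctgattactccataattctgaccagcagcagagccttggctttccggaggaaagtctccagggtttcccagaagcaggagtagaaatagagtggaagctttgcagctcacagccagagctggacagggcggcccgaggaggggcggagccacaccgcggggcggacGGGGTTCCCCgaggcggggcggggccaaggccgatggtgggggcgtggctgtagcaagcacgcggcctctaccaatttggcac
Gclm (chr3:122245307-122245556, plus strand): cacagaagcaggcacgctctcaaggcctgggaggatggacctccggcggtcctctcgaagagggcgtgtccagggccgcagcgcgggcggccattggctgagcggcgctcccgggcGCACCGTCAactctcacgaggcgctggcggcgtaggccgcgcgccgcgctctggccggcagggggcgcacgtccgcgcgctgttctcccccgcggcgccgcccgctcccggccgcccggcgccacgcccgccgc
The first match began 97 bases before the start in Cxcl2, 58 in Tnip1, 83 in Sod2 and 134 in Gclm, with further overlapping matches 1 base on in Cxcl2 and 1 and 2 bases on in Tnip1. A kappaB match was present for 10.1% of the 799 genes lower than additive that had a promoter in the table, 14% of the 186 among them with opposite CS-PA/CNP effects, 6.91% of the 680 higher genes, 5.44% of 9381 tested genes and 4.46% of all 27025 genes listed. For the antioxidant core the shares were 16.0%, 12.4%, 17.5%, 14.1% and 11.5%. For the interferon-stimulated response element core, taken as GAAA, any 2 bases and GAAA, they were 6.63%, 6.99%, 3.38%, 3.46% and 3.46%, and for the AP-1 site TGANTCA 7.38%, 6.45%, 7.79%, 5.55% and 7.82%. PgLPS alone raised 936 of the 972 genes lower than additive, and no motif share was taken over all genes it raised. A link of any motif to the departure, apart from the PgLPS response, was therefore not tested. A gene counts once if any of its listed promoters has a match, and a match is a description of letters, not of binding.

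Pro-inflammatory cytokine genes departed in one direction: of 12 tested, 9 were lower than additive and 3 were not called, with a median of −1.31, or −1.0 over the 7 with at least 10 reads in each group. Tnf (ENSMUSG00000024401, chromosome 17), which encodes tumour necrosis factor, had 40.9, 41.8 and 44.9 CPM in control, 75.6, 72.7 and 71.3 with CS-PA/CNP, 213, 269 and 226 with PgLPS and 189, 205 and 216 with both. Libraries with CS-PA/CNP alone all stood above control, while those with both overlapped those with PgLPS. CS-PA/CNP raised Tnf by 0.78 ± 0.08 alone, its effect with PgLPS was −0.22 ± 0.08 and not called, and the interaction was −1.0 ± 0.11 (edgeR BH-adjusted p = 3.4e-06). Il1a had CS-PA/CNP effects of 0.75 ± 0.31 without PgLPS, which was not called, and −2.41 ± 0.11 with it. Il10, an anti-inflammatory cytokine gene, was not called, with 0.56 ± 0.27 (edgeR BH-adjusted p = 0.189) and a 95% interval of 0.00 to 1.12.

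Several inducible genes had 3 or fewer reads in control. Il6 had 2, 15, 2069 and 260 reads in control, CS-PA/CNP, PgLPS and both. The summed reads with CS-PA/CNP alone came to 7.22 times the control level (95% exact counting interval 1.68 to 65.1), but the test over libraries did not call this effect (edgeR BH-adjusted p = 0.0559). Under PgLPS 0.120 of the level was left (0.105 to 0.137). The interaction of Il6 was called (edgeR BH-adjusted p = 8.1e-05). The plasminogen activator inhibitor gene Serpinb2 had 0, 11, 12612 and 1297 reads, so CS-PA/CNP alone was at least 3.53-fold higher than a floor of 3 reads over the 3 control libraries, an effect not called over libraries (edgeR BH-adjusted p = 0.156), and under PgLPS 0.0982 of the level remained. Itgb8, an integrin, had 0, 17, 1171 and 406 reads. Edn1, the endothelin-1 gene, had 0, 3, 338 and 89 reads, and its call (edgeR BH-adjusted p = 0.0391) held in 11 of 20 alternatives, with adjusted p up to 0.0866. Nos2, the inducible nitric oxide synthase, had 3, 3, 633 and 138 reads, and its interaction was not called by edgeR (BH-adjusted p = 0.369) but by limma on log2(CPM + 1) (adjusted p = 4.9e-06, with 4.9e-06 to 0.808 over the alternatives). Counting intervals and floors cover counting error only.

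Of 18 tested chemokine genes, 9 were lower and 1 higher than additive, with a median of −0.78. Cxcl2, a neutrophil attractant, had 12.2, 12 and 11.1 CPM in control, 66.2, 65.2 and 69 with CS-PA/CNP, 519, 469 and 559.9 with PgLPS and 425, 307 and 444 with both. Every library with CS-PA/CNP alone stood above control (2.51 ± 0.12), and every library with both agents stood below those with PgLPS (−0.40 ± 0.10). Its interaction was −2.9 ± 0.16 (edgeR BH-adjusted p = 3.5e-10). The chemokine Ccl9 departed by −0.96 ± 0.11, with CS-PA/CNP effects of 0.38 and −0.58. Among 14 chemoattractant receptors 4 were lower and 6 higher, with a median of 0.30. The formyl peptide receptors Fpr1 (−2.78 ± 0.19) and Fpr2 (−2.39 ± 0.17) were lower and the fractalkine receptor Cx3cr1 (1.23 ± 0.10) was higher. PgLPS alone changed Fpr1 by 8.24 and Cx3cr1 by −3.22.

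Inflammatory effectors had the lowest median of the pathway lists, −2.15, or −1.93 over the 22 with at least 10 reads in each group, with 21 of 24 tested lower than additive, 3 not called and 13 with CS-PA/CNP effects of opposite sign. The 4 tested stromal markers had the same median of −2.15, with none called. Clec4e (ENSMUSG00000030142, chromosome 6), the Mincle receptor for mycobacterial and self glycolipids, had 34.7, 27.6 and 30.3 CPM in control, 90.4, 77.5 and 88.6 with CS-PA/CNP, 2029, 2066 and 1985 with PgLPS and 915, 840.4 and 888 with both. CS-PA/CNP raised it alone (1.47 ± 0.08) and lowered it under PgLPS (−1.2 ± 0.07), with separate groups and an interaction of −2.67 ± 0.11 (edgeR BH-adjusted p = 9.1e-12). Marco went from 6.68 ± 0.55 to 43.3 ± 3.3 CPM with CS-PA/CNP alone, but from 1997 ± 233 to 1680.5 ± 39 CPM under PgLPS (SD, n = 3). Sod2, the mitochondrial superoxide dismutase, departed by −1.78 ± 0.07 (edgeR BH-adjusted p = 1.1e-11), and Igsf6, a myeloid immunoglobulin-like receptor, by −1.46 ± 0.07 (edgeR BH-adjusted p = 1.4e-10). Of 16 matrix protease and plasminogen genes 7 were lower and 1 higher (median −0.65), with Mmp14, a membrane collagenase, at −2.02 ± 0.14 and the collagenase Mmp13 at −1.5 ± 0.12.

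Of 30 tested interferon-stimulated genes, 16 were lower than additive and 14 were not called, with a median of −0.46, although PgLPS alone had a median effect of 6.39 on them. The largest were Ifi205 (−2.72 ± 0.23), a DNA-sensor family gene, and the guanylate-binding protein genes Gbp2 (−1.97 ± 0.19) and Gbp3 (−1.47 ± 0.22). Ifi205 and H2-K1 belong to families of similar genes between which reads may be divided. Of 12 MHC class I genes 8 were lower, with a median of −0.44, among them the peptide loading genes Tap1 (−0.58 ± 0.10) and Tapbp (−0.52 ± 0.09) and the heavy chain H2-K1 (−0.57 ± 0.10). No MHC class II gene of 7 was called by edgeR, with a median of −0.08. At an unadjusted p under 0.05 there was 1, and DESeq2, limma-voom and limma on log2(CPM + 1) called 0. Of 21 interleukin, tumour necrosis factor and interferon receptors, 12 were lower and 1 higher, with a median of −0.52. Tnfrsf1b, a receptor for tumour necrosis factor, had −1.16 ± 0.08, Csf3r, the granulocyte growth factor receptor, −1.16 ± 0.08 and Il4ra, the interleukin-4 receptor, −1.07 ± 0.09.

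**Figure D4:**
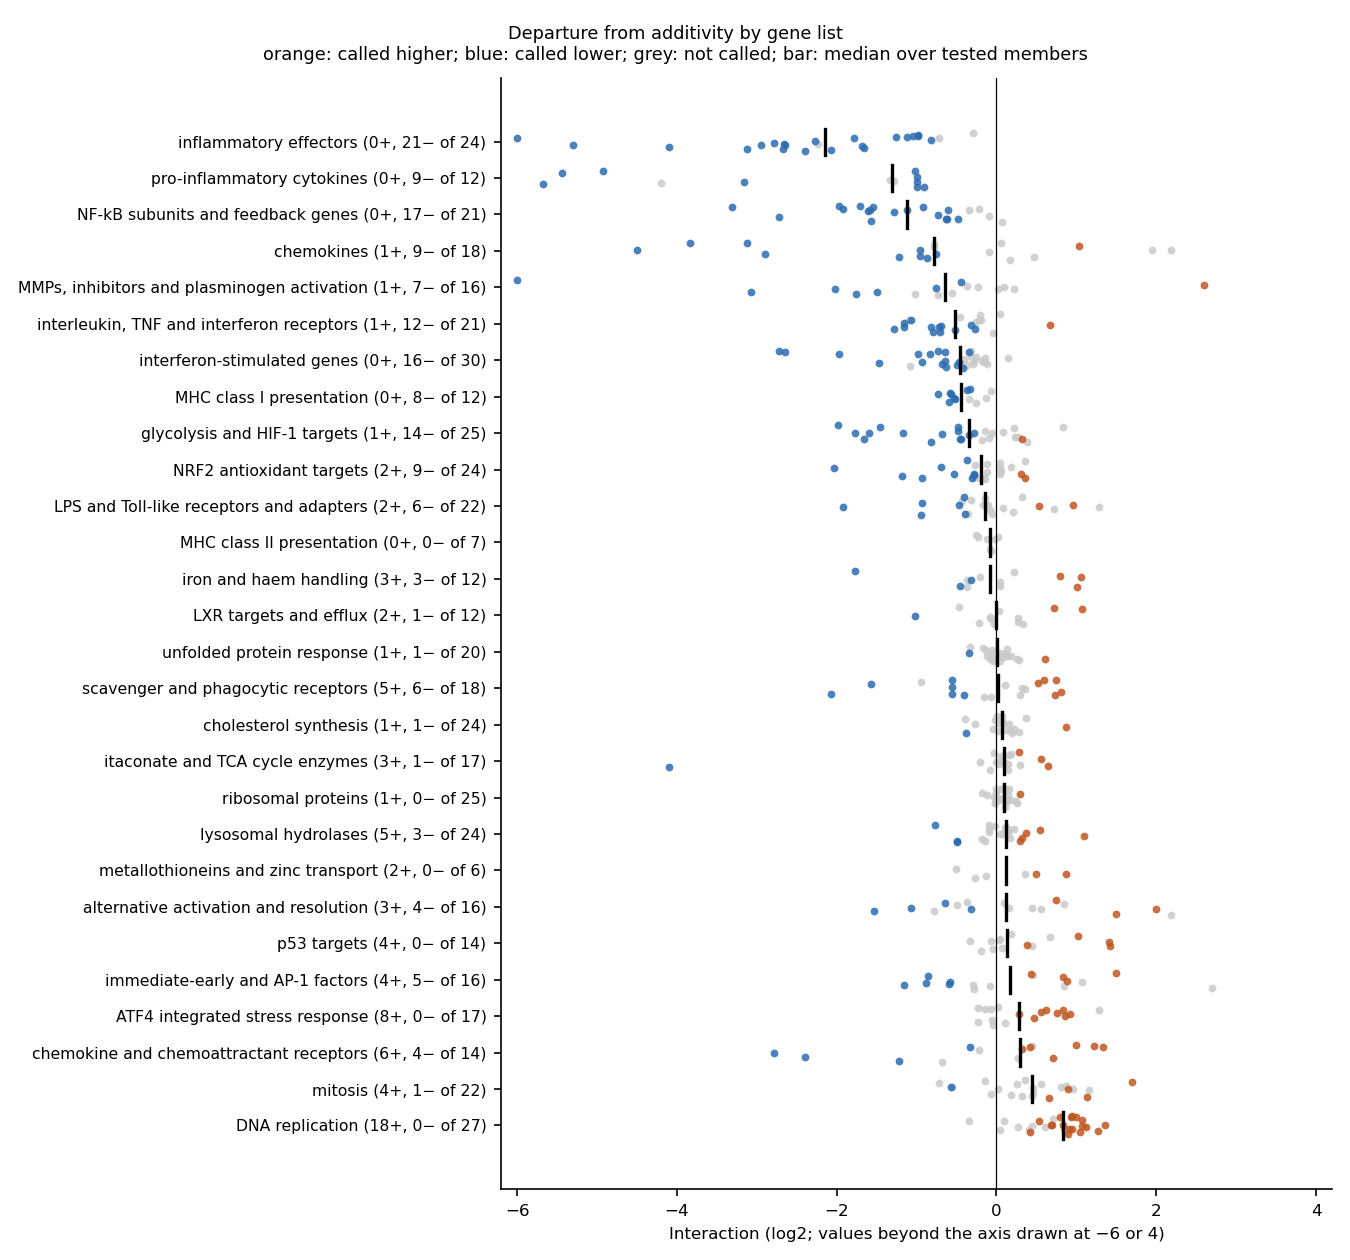
Interaction (log2, horizontal) of each tested member of 28 gene lists, with the counts called higher (+) and lower (−) of those tested beside each name and a bar at the median. Over all tested genes 7.46% were called higher and 8.34% lower. The lists run from inflammatory effectors at −2.15 to DNA replication at 0.84, and ribosomal proteins, cholesterol synthesis and the unfolded protein response sit near 0.

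Of the 3683 genes that PgLPS alone lowered, 795 were called higher than additive, the mirror pattern, and most were not. Plau (ENSMUSG00000021822, chromosome 14), the urokinase that activates plasminogen, had the smallest adjusted p of all tested genes. Its levels were 1139, 1117 and 1160.2 CPM in control, 461, 420.2 and 442 with CS-PA/CNP, 42.9, 44.6 and 45.1 with PgLPS and 98, 106 and 107 with both. The groups were separate and tight, CS-PA/CNP lowered Plau alone (−1.37 ± 0.05) and raised it under PgLPS (1.23 ± 0.06). The interaction was 2.6 ± 0.08 (edgeR BH-adjusted p = 3.2e-13), and multiplied fold changes would have given 17.1 CPM with both agents. Nptx1, a pentraxin gene, had the largest positive departure among genes with at least 10 reads in each group, 3.47 ± 0.39, with 87.7 ± 9.4, 42.8 ± 2.9, 0.336 ± 0.18 and 1.85 ± 0.6 CPM (SD, n = 3) in control, CS-PA/CNP, PgLPS and both. It stood at 2.10 with limma on log2(CPM + 1).

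The other large positive departures were in genes of varied function. They were Dmpk, a serine-threonine kinase (2.97 ± 0.58, or 1.77 with limma on log2(CPM + 1)), the activity-regulated transcription factor Npas4 (2.89 ± 0.34), the tetraspanin Tspan33 (2.69 ± 0.47, or 1.52), the neutral sphingomyelinase Smpd3 (2.68 ± 0.47, or 1.77) and Fancd2 of DNA crosslink repair (2.64 ± 0.52, or 1.24). Sncaip (2.53 ± 0.24), Ptchd1 (2.4 ± 0.24), the type IV collagen chain Col4a5 (2.31 ± 0.30), the thyroid hormone deiodinase Dio2 (2.31 ± 0.26) and Pcp4l1 (2.27 ± 0.32) completed them. Of these 12 genes, Nptx1, Dmpk, Tspan33, Smpd3 and Fancd2 had 15, 20, 17, 19 and 11 reads summed over the PgLPS libraries. Dmpk had 0.458, 0.325 and 0.540 CPM with PgLPS and 3.13, 1.39 and 0.409 with both. Library 3 of both agents thus lay within the PgLPS range. Below 10 reads in that group were Klhl3 (640, 538, 4 and 51 reads in control, CS-PA/CNP, PgLPS and both), Plekhh2 (622, 312, 7 and 38), Cmbl (410, 234, 9 and 36) and Tox2 (809, 337, 7 and 20). The call of Tox2 (edgeR BH-adjusted p = 0.0103) was lost without library 1 of both agents (0.0585) and with limma-voom (0.0665), with 4.4e-04 to 0.0665 over the alternatives.

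DNA replication genes were higher than additive in 18 of 27 tested cases, and 9 were not called, with a median of 0.84. Their median effects were −0.44 for CS-PA/CNP alone and 0.33 for CS-PA/CNP under PgLPS, beside −2.4 for PgLPS alone. Mcm6, a subunit of the replicative helicase, had 309.7, 316 and 302 CPM in control, 199.7, 234 and 216 with CS-PA/CNP, 38.6, 48.8 and 44.6 with PgLPS and 61.2, 77.1 and 55.8 with both. Control and CS-PA/CNP libraries did not overlap, nor did PgLPS and both, and the interaction was 1.07 ± 0.14 (edgeR BH-adjusted p = 2.0e-05). Pcna, the polymerase clamp, departed by 1.07 ± 0.10 and Mcm2 by 0.89 ± 0.12. Of 22 mitosis genes 4 were higher and 1 lower, with a median of 0.45, beside 7.46% higher and 8.34% lower over all tested genes. PgLPS alone lowered all 27 replication and all 22 mitosis genes, and of all 3683 genes it lowered 795 were higher than additive. The motor Kif23 (1.69 ± 0.38) and topoisomerase Top2a (0.90 ± 0.19) were higher. Mki67, the proliferation antigen, was lower at −0.57 ± 0.12: CS-PA/CNP lowered it alone (−0.45 ± 0.08) and under PgLPS (−1.02 ± 0.09).

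Of 17 genes of the ATF4 integrated stress response 8 were higher and 9 were not called, with a median of 0.28, among them the transcription factor Atf3 (0.84 ± 0.09), the serine pathway enzyme Shmt2 (0.76 ± 0.12) and asparagine synthetase Asns (0.56 ± 0.11). Of 14 p53 targets 4 were higher and 10 were not called, with a median of 0.13, beside 7.46% higher over all tested genes. Plk2, a polo-like kinase, stood at 1.42 ± 0.08, Sesn1 at 1.41 ± 0.15 and the stress cytokine Gdf15 at 1.02 ± 0.20. Immediate-early and AP-1 genes went both ways, with 4 of 16 higher and 5 lower and a median of 0.17, or −0.085 over the 15 with at least 10 reads in each group. Egr2, a zinc finger factor, was higher (1.5 ± 0.11) and Junb lower (−0.58 ± 0.09). Ccnd1, the G1 cyclin, was called only under PgLPS for CS-PA/CNP, with −0.22 without and 1.31 with PgLPS and an interaction of 1.53 ± 0.10.

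In the alternative activation list 3 of 16 were higher and 4 lower, with a median of 0.12. Pparg, a lipid-sensing nuclear receptor, had 71.3, 77.8 and 73 CPM in control, 37.3, 46.2 and 43.6 with CS-PA/CNP, 5.87, 7.47 and 7.38 with PgLPS and 14.5, 18.4 and 14.6 with both, and all 4 groups were separate. CS-PA/CNP lowered it alone (−0.81 ± 0.10) and raised it under PgLPS (1.19 ± 0.13), with an interaction of 1.99 ± 0.16 (edgeR BH-adjusted p = 5.8e-08). Arg1, the arginase gene, departed by −1.53 ± 0.43 (edgeR BH-adjusted p = 0.0197). Alternatives gave adjusted p of 1.2e-05 to 0.116, and significance was lost without CS-PA/CNP library 3 (0.112), control library 2 (0.0780) or control library 3 (0.0647) and with limma-voom (0.116). Il1rn, the interleukin-1 receptor antagonist, was lowered by CS-PA/CNP in both settings (−0.51 ± 0.07 and −1.63 ± 0.06), with an interaction of −1.12 ± 0.10.

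Scavenger and phagocytic receptors departed in both directions, with 5 of 18 higher and 6 lower and a median of 0.02. Fcgr2b, the inhibitory Fc receptor, had 20.0, 20.5 and 21.7 CPM in control, 29.4, 29.6 and 26.7 with CS-PA/CNP, 1261, 1344 and 1247 with PgLPS and 407, 426 and 427 with both. The groups were separate, and libraries with both agents lay between CS-PA/CNP and PgLPS. The interaction was −2.07 ± 0.09 (edgeR BH-adjusted p = 1.4e-11). Cd36, a fatty acid and lipoprotein receptor, was higher at 0.74 ± 0.07: its mean was 3846 CPM in control, 3852 with CS-PA/CNP, 2040.4 with PgLPS and 3411 with both. The dectin-2 gene Clec4n was lower at −1.57 ± 0.15, although CS-PA/CNP raised it both without (1.87 ± 0.12) and with PgLPS (0.30 ± 0.10). On the CPM scale Clec4n departed by −2.35 ± 13.6 (SE). The related lectin Clec4d rose with CS-PA/CNP only without PgLPS (0.94 against −0.01, interaction −0.96 ± 0.08).

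Glycolysis genes and targets of the hypoxia factor HIF-1 were lower in 14 of 25 tested cases and higher in 1, with a median of −0.34. Hif1a, the gene of the factor itself, had 98.1, 91.5 and 94.7 CPM in control, 99.8, 98 and 95.3 with CS-PA/CNP, 497, 357 and 441 with PgLPS and 143, 116 and 131 with both. PgLPS libraries stood above all others, control and CS-PA/CNP overlapped, and the CS-PA/CNP effect was 0.04 ± 0.10 without PgLPS and −1.73 ± 0.10 with it, an interaction of −1.78 ± 0.13 (edgeR BH-adjusted p = 2.0e-08). Pfkfb3, which makes the activator of phosphofructokinase, had CS-PA/CNP effects of 0.01 ± 0.08 without and −1.97 ± 0.07 with PgLPS and an interaction of −1.98 ± 0.11. The lactate exporter Slc16a3 changed order: CS-PA/CNP raised it from 55.8 to 94.3 CPM alone and lowered it from 86.7 to 48.7 CPM under PgLPS, so that PgLPS raised it without CS-PA/CNP (0.64 ± 0.09) and lowered it with (−0.95 ± 0.09). Of 17 itaconate and citric acid cycle enzymes 3 were higher and 1, Acod1, lower (median 0.09), with Idh2 at 0.65 ± 0.11 and Mdh1 at 0.56 ± 0.12. Over all tested genes 7.46% were higher and 8.34% lower.

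Few genes that CS-PA/CNP changed strongly in both settings were shown to add. For 22 genes CS-PA/CNP had effects of at least 2-fold in the same direction in both settings, 20 of them rises, and 3 of the 22 were called in the interaction. For 8 of them, Ptgr1, Prdx6, A530064D06Rik, Pcx, Gclm, Panx1, Cat and Uchl1, all raised, the 95% interval of the interaction lay within 1.5-fold of additive. Prdx6, a peroxiredoxin, had 81.6, 79 and 89.5 CPM in control, 257, 234 and 255 with CS-PA/CNP, 112, 122 and 114 with PgLPS and 319.6, 286 and 315 with both. It rose by 1.58 ± 0.07 without and 1.4 ± 0.07 with PgLPS with no overlap in either setting, and its interaction was −0.17 ± 0.09 (95% interval −0.37 to 0.03). Catalase, Cat, had 550.0, 534 and 560.4 CPM in control, 1192, 1107 and 1141 with CS-PA/CNP, 383, 365 and 399 with PgLPS and 854, 766 and 882 with both, effects of 1.06 ± 0.06 and 1.13 ± 0.06 and an interval of −0.11 to 0.24. On the CPM scale Cat departed by −147 ± 44.5 (SE), so its additivity is that of the log2 scale. Panx1, a membrane channel, had an interval of −0.31 to 0.21 and Pcx, pyruvate carboxylase, one of −0.56 to 0.33. Ptgr1, a reductase of prostaglandins and reactive aldehydes, rose by 1.76 ± 0.08 and 1.46 ± 0.08 (interval −0.54 to −0.08). Its interaction was not called (edgeR BH-adjusted p = 0.0681) but was called without PgLPS library 1 (0.0208), without control library 2 (0.0383), by DESeq2 (0.0436) and with a block (0.0188), over a range of 0.0188 to 0.217.

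Gclm, the modifier subunit of glutathione synthesis, lay within the 1.5-fold band and was also called, at −0.29 ± 0.08 (edgeR BH-adjusted p = 0.0161; alternatives gave 0.0019 to 0.11). Its means were 265 ± 4.5, 693 ± 30, 353 ± 17 and 756 ± 30 CPM (SD, n = 3). The call was lost without CS-PA/CNP library 1 (0.0702), CS-PA/CNP library 3 (0.0593), PgLPS library 3 (0.0604) or control library 2 (0.0577) and with library totals (0.11). Over the whole NRF2 list, 9 of 24 were lower and 2 higher, with a median of −0.19 and median CS-PA/CNP effects of 0.87 without and 0.63 with PgLPS. The lower members included the cystine transporter Slc7a11 (−2.03 ± 0.25), glutathione reductase Gsr (−1.18 ± 0.08) and ferritin heavy chain Fth1 (−0.70 ± 0.09), all also raised by PgLPS alone (4.57, 1.91 and 1.48). Reads of Fth1 may be shared with processed copies. Nqo1, a quinone reductase named after its values were seen, had effects of 2.32 ± 0.18 and 2.1 ± 0.18 and an interaction of −0.22 ± 0.26 with a wider interval, −0.77 to 0.32.

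Medians were −0.08 for iron and haem genes, 0.00 for LXR targets, 0.11 for lysosomal hydrolases and 0.12 for zinc genes. Beside the counts that follow, 7.46% of all tested genes were higher and 8.34% lower. Of 12 iron and haem genes 3 were higher and 3 lower, with the iron exporter Slc40a1 (1.0 ± 0.12) and the transferrin receptor Tfrc (1.06 ± 0.13) higher and ceruloplasmin, Cp, lower (−1.78 ± 0.17). Of 12 LXR targets 2 were higher and 1 lower: the lipoprotein lipase Lpl (1.08 ± 0.10) and the sterol exporter Abcg1 (0.72 ± 0.12) against the exporter Abca1 (−1.02 ± 0.15). Of 24 lysosomal genes 5 were higher and 3 lower, with the acid lipase Lipa (1.09 ± 0.07) and cathepsin L, Ctsl (0.55 ± 0.07), higher and the acid phosphatase Acp5 (−0.77 ± 0.14) lower. Lipa stood at 2364, 2629.8, 743 and 1766 CPM. Of 6 metallothionein and zinc genes 2 were higher, the zinc transporters Slc30a4 (0.87 ± 0.18) and Slc39a10 (0.50 ± 0.15). The call of Slc39a10 was lost in 6 of 20 alternatives, each leaving out 1 library, with adjusted p up to 0.0906.

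Several lists had medians near 0. Of 24 cholesterol synthesis genes 1 was higher (Dhcr7, 0.87 ± 0.12), with a median of 0.06 and CS-PA/CNP effects of 0.16 and 0.21 at the median. Of 20 unfolded protein response genes 1 was higher (Atf6, 0.61 ± 0.12) and 1 lower (Xbp1, −0.34 ± 0.08), with a median of 0.01 and median effects of 0.44 without and 0.43 with PgLPS. Of 25 ribosomal protein genes 1 was higher (Rpl3, 0.29 ± 0.09), with a median of 0.09, and that call was lost in 6 of 20 alternatives (adjusted p up to 0.0777). The shift of 0.09 with library totals is as large as these medians.

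A minority had a PgLPS response that grew, appeared or turned with CS-PA/CNP; these were picked by adjusted p after the values were seen. Among the 45 with a larger change were Ccr3, a chemokine receptor, at 1.34 ± 0.16, Igf2bp2, an RNA-binding protein, at 0.99 ± 0.08 and Cd72, an inhibitory lectin, at 1.05 ± 0.15. Ccr3 had 31.1, 29.6 and 28.9 CPM in control, 14.3, 21.4 and 17.7 with CS-PA/CNP, 46.7, 52.6 and 45.1 with PgLPS and 72.4, 80.0 and 64.1 with both, so that PgLPS raised it by 0.69 ± 0.11 without and 2.02 ± 0.12 with CS-PA/CNP. Among the 45 that turned, Cd180, a Toll-like receptor homologue that tempers LPS signalling, had 279, 269.9 and 260.1 CPM in control, 208, 208 and 191 with CS-PA/CNP, 219, 231 and 216 with PgLPS and 346, 361 and 331 with both. PgLPS lowered Cd180 without CS-PA/CNP (−0.28 ± 0.06) and raised it with it (0.78 ± 0.06). Stap1, a signalling adapter, turned in the same sense (1.23 ± 0.10). The PgLPS effect was called only with CS-PA/CNP for Irf5, an interferon regulatory factor, at 0.37 ± 0.05, and for Bnip3, a mitophagy receptor, at −1.31 ± 0.16.

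Additivity depends on the scale. On the CPM scale the departure had the opposite sign to the log2 interaction for 17 of the 1841 called genes, 6 of those called higher and 11 of those called lower. It exceeded 2 standard errors in the same direction for 840 of the 869 higher and 925 of the 972 lower genes. Ass1, argininosuccinate synthase, was raised by CS-PA/CNP alone from 7.52 ± 0.42 to 44.4 ± 5.6 CPM and under PgLPS from 279 ± 4.7 to 394 ± 34 CPM (SD, n = 3). Its log2 interaction was −2.07 ± 0.13, and on the CPM scale the departure was 77.7 ± 20.3 (SE). Procr, the protein C receptor, had −1.25 ± 0.11 and 12.7 ± 14.6 CPM, and Mki67 −0.57 ± 0.12 and 0.314 ± 3.31 CPM, each within 1 standard error of 0 on the CPM scale.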

How the data were processed

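Read counts per gene were used as deposited by the authors, whole numbers in 1 table of 21899 genes with 12 count columns. Its other 12 columns of per-library values were not used. Tools listed by the submitters' processing notes, without roles, are DESeq 1.30.0, HTSeq 0.9.1, HISAT2 2.0.5 and cutadapt 1.15. Genome build, annotation and strandedness were not given in the sources used here. Overlapping and antisense genes therefore cannot be separated, and chromosomes are given without coordinates. Columns were assigned to groups by their letters (C control, M CS-PA/CNP, L PgLPS, LM both), and library numbers are those of the column names.

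Counts were fitted with edgeR 4.0.16 (R 4.3.3), 1 mean per group, TMM and filterByExpr, which kept 11656 genes. TMM factors were 0.853 to 1.16. Intervals are 95%. Named genes were the 12 largest departures per direction (highest group mean at least 5 CPM, at least 10 reads in each group), the 8 smallest adjusted p, 4 per direction with fewer reads, 3 per form of CS-PA/CNP effect and per list, 6 additive genes, and Arg1, Nos2, Il10, Il6, Il1b and Tnf. Clone names were left out. Not every gene the rule takes is printed. Lists are described by counts and medians. The design, members, 28 gene lists and 8 marker lists were chosen with earlier results of these data known. The script was tested on simulated data. Alternatives were limma 3.58.1, DESeq2 1.42.0, other scalings and filters, and each library left out. Promoter letters came from RefSeq (GRCm38.p6), matched by symbol for 9381 of the tested genes. Some items are not reported here.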

Additional observations from a re-analysis of the deposited data

Results flagged for a closer look

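The CS-PA/CNP effect was called in opposite directions without and with PgLPS, with the interaction called, for 406 genes. Leaving out 1 library gave 317 to 425 such genes. At least 2-fold in each direction were 17 genes that CS-PA/CNP raised alone and lowered under PgLPS, and 13 with the reverse. Those with at least 10 reads in each group that the text names had these interactions (edgeR log2 ± SE). In the first direction they were Il1b −5.44 ± 0.38, Saa3 −5.3 ± 0.55, Ccl5 −3.84 ± 0.37, Olr1 −3.61 ± 0.46, Socs3 −3.31 ± 0.19, Ptges −3.12 ± 0.16 and Clec4e −2.67 ± 0.11. In the second they were Nptx1 3.47 ± 0.39, Dmpk 2.97 ± 0.58, Npas4 2.89 ± 0.34, Smpd3 2.68 ± 0.47, Plau 2.6 ± 0.08, Sncaip 2.53 ± 0.24, Col4a5 2.31 ± 0.30 and Pcp4l1 2.27 ± 0.32. For Dmpk, library 3 of both agents (0.409 CPM) lay within the range of the PgLPS libraries.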

How the results depend on the processing

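The counts of genes higher and lower than additive stayed within 1.5 times of 869 and 972 under all alternatives run. DESeq2 called 2015 genes, limma-voom 1767, limma on log2(CPM + 1) 1933 and library totals 1970, sharing 1834, 1727, 1794 and 1584 with the 1841. Leaving out 1 library gave 728 to 854 higher and 783 to 991 lower genes. Of 119 named genes called, none reversed under another tool, scaling, filter or library set, and 112 kept their call in all 20 alternatives. On the CPM scale the departure of Ass1 reversed (77.7 CPM), while Procr (12.7) and Mki67 (0.314) changed sign but lay within 1 standard error of 0. Among uncalled genes Panx1 turned to 0.044 with library totals and ran from −0.13 to 0.045 without 1 library, and Pcx ran from −0.22 to 0.0064. Additive genes fell from 8 to 2 with a narrower band. Without 1 library, CS-PA/CNP alone changed 949 to 1641 genes against 1431, the lowest without CS-PA/CNP library 3, and 10 to 20 called genes had the opposite sign on the CPM scale, 11 and 10 of them without CS-PA/CNP libraries 1 and 3. The labels' replicate numbers could not be matched to columns. A replicate block by column number, added after seeing the data, called 2403 genes, of which 1840 were among the 1841, and gave 26 genes of opposite sign on the CPM scale against 17. Deviations of same-numbered libraries correlated at −0.07 to 0.22, with 4 of 18 pairs over 0.1, against −0.19 to 0.11 and 1 of 36 for different numbers, and 9 of 12 libraries correlated better on average with their own number. This is a hint of pairing from the data. The numbers were not taken to pair libraries because no label ties them and not every same-numbered pair was over 0.1. Low reads in 1 group limit 20 higher and 17 lower calls.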
